A study of Homo sapiens with 192 samples.

Results

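The 10 genes described here encode NF-kB subunits (NFKB1, NFKB2, RELA and RELB), their IkB inhibitors (NFKBIA and NFKBIE), targets that act on the pathway or at its receptors (TNFAIP3, BIRC3 and TRAF1) and the TNF-induced TNFAIP2. They were chosen by symbol and not by a cut on their measured values, though with earlier results of these data known. They were found by their Ensembl identifiers among the 58243 genes listed, of which 19387 had enough counts to be tested, all 10 included. RNA sequencing had been performed on 4 human colorectal cancer (CRC) cell lines, the microsatellite stable HT29 and LS513 and the microsatellite instable HCT116 and LS174T, each grown in 2D or in 3D. Each line and growth condition gave 3 libraries, so that 24 libraries in 8 groups were compared. None of the groups carried an engineered allele or received a drug. HCT116 was kept in McCoy medium and the other lines in DMEM, so that line and medium cannot be told apart when HCT116 is set beside the others. In the same study spheroids were grown in low attachment plates, and how the 3D cultures for RNA were set up is not given in the sources used here. Each line is a single established line, and the labels do not say that its libraries came from separate cultures. The p-values therefore measure the spread between these libraries, which may be technical.

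NF-kB transcription factors are dimers of the subunits, held inactive in the cytoplasm by IkB proteins until a kinase complex marks the inhibitor for degradation. In the canonical pathway, dimers of RELA and the p50 product of NFKB1 are released after signals such as TNF or interleukin-1, whereas in the non-canonical pathway RELB pairs with the p52 product of NFKB2. Many NF-kB targets encode brakes on the pathway, and in intestinal epithelium it is best known for inflammatory responses and protection from cell death.

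The summed counts of a library lay between 18723942 and 34277421 (median 30777613), and 3 counts in a library, taken as the floor of detection, corresponded to 0.0875 to 0.160 CPM (counts scaled to a common total). All levels are in CPM after TMM scaling. The share of counts on mitochondrially encoded genes was 1.14% to 3.48% in 23 of the libraries and 6.40% in replicate 1 of HCT116 grown in 3D. The libraries of LS174T grown in 3D differed most among themselves (median chi-square per degree of freedom 15.8, against 2.40 in LS513 grown in 2D). All 9 colorectal epithelium markers were above the floor in HT29, LS513 and LS174T. In HCT116 the mean levels of VIL1, LGALS4 and CEACAM5 were at most 0.363 CPM, and KRT20 reached 2.50 CPM. Of the 6 leukocyte markers, CD3E had 0 counts throughout and PTPRC at most 2 counts in a library, whereas the summed level of the list was higher in 3D in every line, through LYZ and CD68. It ran from 1330 to 1440 CPM in HT29 grown in 2D and from 2440 to 2690 CPM in 3D, from 20.7 to 22.3 and from 65.3 to 96.4 CPM in LS513, and between 9.89 and 13.7 CPM in 2D and 36.4 and 48.2 CPM in 3D in HCT116. In LS174T the ranges were 3.87 to 6.07 and 8.92 to 10.9 CPM. The 6 fibroblast markers summed to at most 22.1 CPM, with COL1A2 at 0 counts, and the 3 endothelial markers to at most 2.38 CPM. The part of these markers in the results was not tested.

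The promoters of the genes are shown first, because members of the group that carried the same motif moved in different directions. RefSeq start sites on GRCh38.p14 were available for 8 of the 10 genes, with RELB and NFKBIE missing, and gave 14 windows of 300 bases. Both strands were searched for a kB consensus, the degenerate motif bound by NF-kB dimers, here GGG, a purine, any base, 3 pyrimidines and CC. The consensus was found in 5 of the 8 genes, namely NFKB1, NFKB2, NFKBIA, TNFAIP3 and BIRC3, and in 6 of the 14 windows. It occurred in 9.16% of the 27305 genes with such windows and in 7.73% of the 35116 windows. A pair of GAAA repeats with 2 bases between them, as in interferon-response elements, was found in 1 of the 8 genes, RELA, and in 4.38% of all genes. The RELA, TNFAIP2 and TRAF1 windows held no match to the kB consensus, which says only that these letters are not in these windows. A match is a description of the sequence and not a measured binding site.

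The stretches upstream of the start site of NFKB1 (chr4:102501109-102501328, plus strand), NFKBIA (chr14:35404750-35404999, minus strand), BIRC3 (chr11:102317234-102317449, plus strand) and TNFAIP2 (chr14:103123211-103123441, plus strand) are printed 5′ to 3′ on the strand of the gene. Capitals mark the match to the kB consensus. NFKB1 is shown as the gene whose level was lower in 3D, NFKBIA as an inhibitor gene with the opposite direction, and BIRC3 and TNFAIP2 as the genes whose growth effect differed between the lines, with and without a match.
NFKB1: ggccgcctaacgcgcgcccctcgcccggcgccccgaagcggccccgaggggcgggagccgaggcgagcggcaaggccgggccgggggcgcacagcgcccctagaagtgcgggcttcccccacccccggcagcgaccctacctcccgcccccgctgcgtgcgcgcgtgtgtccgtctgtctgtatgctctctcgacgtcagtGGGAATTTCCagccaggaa
NFKBIA: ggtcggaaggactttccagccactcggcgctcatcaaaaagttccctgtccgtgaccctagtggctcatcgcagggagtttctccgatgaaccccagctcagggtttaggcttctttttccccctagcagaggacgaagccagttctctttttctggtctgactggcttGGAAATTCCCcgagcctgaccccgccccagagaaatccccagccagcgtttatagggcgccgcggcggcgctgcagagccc
BIRC3: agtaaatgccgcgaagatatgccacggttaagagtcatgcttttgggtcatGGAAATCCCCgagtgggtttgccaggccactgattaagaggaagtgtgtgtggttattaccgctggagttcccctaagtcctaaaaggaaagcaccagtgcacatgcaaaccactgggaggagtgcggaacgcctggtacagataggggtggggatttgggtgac
TNFAIP2: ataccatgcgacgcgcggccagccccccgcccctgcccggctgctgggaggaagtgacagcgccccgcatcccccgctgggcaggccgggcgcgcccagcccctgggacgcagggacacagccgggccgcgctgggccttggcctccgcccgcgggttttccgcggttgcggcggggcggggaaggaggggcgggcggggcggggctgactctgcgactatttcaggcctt

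In NFKB2 and TNFAIP3 more than 1 match was present, and these are shown with their flanking bases, named by the distance of their first base from the start site of the window. The NFKB2 matches lie at chr10:102394463-102394488, chr10:102394492-102394517, chr10:102395521-102395546 and chr10:102395676-102395701, and those of TNFAIP3, which share bases, at chr6:137867184-137867209 and chr6:137867196-137867221, flanks included.
NFKB2 at -107: aacgtcatGGGAATTCCCccctccgg
NFKB2 at -78: gccgagaaGGGGCTTTCCcggccctg
NFKB2 at -176 of a further start site: cccccaccGGGGCTTCCCggattctc
NFKB2 at -21 of that start site: gtattttcGGGACTTTCCtaagctgc
TNFAIP3 at -67: gtgactttGGAAAGTCCCgtggaaat
TNFAIP3 at -55: agtcccgtGGAAATCCCCgggcctac

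Growth in 3D changed the group in a direction that depended on the gene. NFKB1 was lower in 3D in HT29, HCT116 and LS174T, while RELB was higher in the same lines, and the remaining subunit genes rose in LS513 and HCT116 and did not pass the test in HT29 and LS174T. HCT116 had the most changed members, and TNFAIP2 in LS513 and BIRC3 in HCT116 had the greatest increases among the 10 genes. Fold changes are log2 of 3D over 2D, and a gene was called where its adjusted p was under 0.05 by edgeR's quasi-likelihood test on all 24 libraries (two-sided, Benjamini-Hochberg over the 19387 genes). In bulk RNA, fewer cells with a transcript and less transcript per cell cannot be told apart.

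In HT29, 2 of the 10 members were higher and 1 was lower in 3D, against 21.1% and 19.6% of all tested genes. In LS513, 3 were higher and 0 lower, with 13.7% and 9.90% of all genes. NFKB1 in LS513 was the 1 gene that was lower at an unadjusted p under 0.05 by edgeR, and DESeq2 called it. In HCT116, 6 were higher and 1 was lower, with 16.8% and 12.3% of all genes. In LS174T, 2 were higher and 1 was lower, with 13.1% and 9.15%. The shares of members in HT29 were thus near or under the background, and that of higher members in HCT116 was above it. The median log2 fold change of the 10 genes was 0.45 in HCT116, 0.24 in LS513, 0.17 in LS174T and 0.08 in HT29, beside medians between 0.00 and 0.02 over all tested genes. The HCT116 count rested in part on replicate 1 in 3D, the library with the 6.40% mitochondrial share. Without it 3 members, RELA, RELB and BIRC3, were higher, and NFKB2 (adjusted p = 0.059, edgeR), NFKBIA (adjusted p = 0.11) and TNFAIP3 (adjusted p = 0.20) were no longer called.

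**Figure D1:**
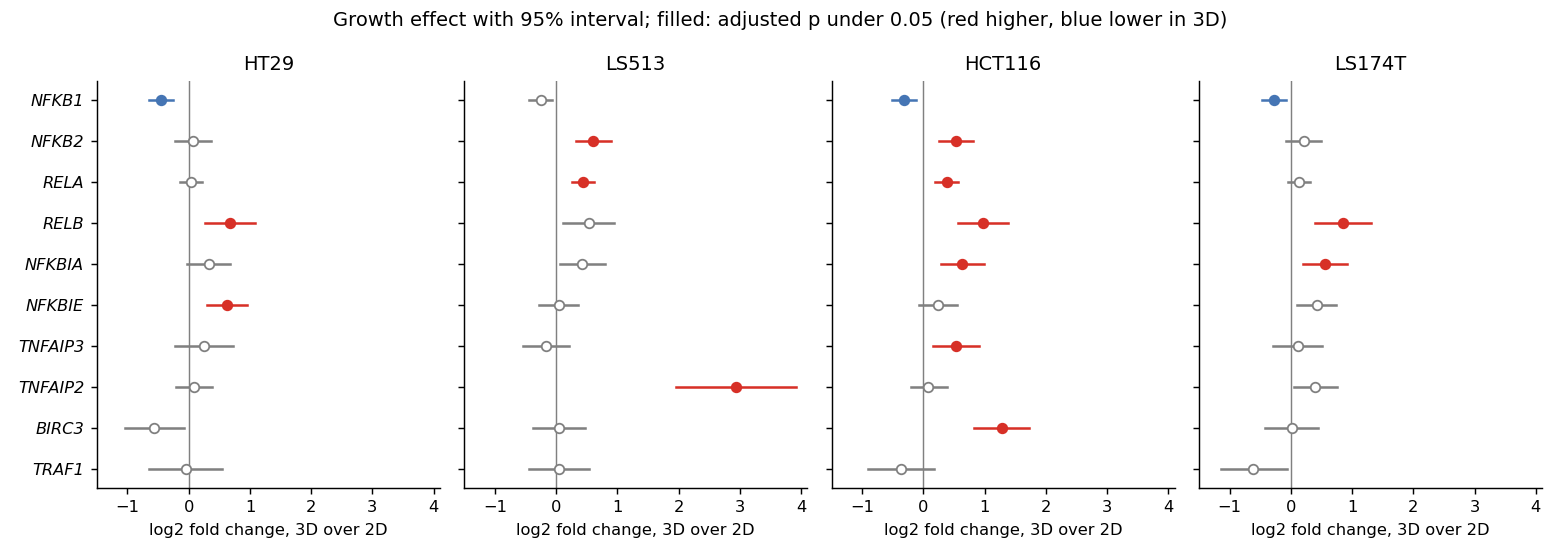
Log2 fold change of each gene, 3D over 2D, in the 4 lines (points) with its 95% interval (lines); filled points had an adjusted p under 0.05, red for higher and blue for lower in 3D. NFKB1 lies under 0 in every panel and RELB above 0, while TNFAIP2 in LS513 at 2.94 and BIRC3 in HCT116 at 1.28 lie farthest to the right.

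NFKB1 (ENSG00000109320, chromosome 4, 102501329 to 102617302 on GRCh38) encodes p105, the precursor of p50. Its level in HT29 was 84.2, 85.5 and 80.8 CPM in the 2D libraries and 64.9, 56.2 and 62.6 CPM in 3D. In LS513 it was 89.7, 89.6 and 86.1 CPM in 2D and 77.8, 67.2 and 77.4 CPM in 3D. In HCT116 it was 70.9, 65.5 and 60.2 CPM in 2D and 52.3, 51.9 and 53.7 CPM in 3D. Every 3D library was thus under every 2D library of its line in these lines, and this held in LS174T as well. There the levels were 93.9, 91.6 and 93.3 CPM in 2D and 82.8, 63.6 and 84.2 CPM in 3D, with replicate 2 in 3D lowest. All 3D libraries were under all 2D libraries for 17.6% of tested genes in HCT116 and in LS174T, 20.0% in LS513 and 25.6% in HT29. NFKB1 fell by 0.45 on the log2 scale in HT29 (SE 0.10, adjusted p = 0.00071, edgeR), by 0.32 in HCT116 (SE 0.10, adjusted p = 0.015) and by 0.27 in LS174T (SE 0.09, adjusted p = 0.041). In LS513 the log2 fold change of -0.25 (95% interval -0.45 to -0.06) did not pass the test (adjusted p = 0.055, edgeR). The call in HCT116 was lost without replicate 1 in 2D (adjusted p = 0.091, edgeR), and that in LS174T without any of the 2D libraries (adjusted p = 0.10, 0.083 and 0.10 in the order of their numbers) or without replicate 2 in 3D (log2 fold change -0.15, adjusted p = 0.32).

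RELB (ENSG00000104856, chromosome 19, 45001430 to 45038198) encodes the subunit that partners p52 in the non-canonical pathway. HT29 had 13, 15 and 13.6 CPM in 2D and 25.1, 21.8 and 19.9 CPM in 3D. LS513 had 12.8, 11.7 and 13.3 CPM in 2D and 19.1, 20.9 and 14.6 CPM in 3D. LS174T, the line with the least RELB, had 2.42, 2.79 and 3.23 CPM in 2D and 5.12, 5.36 and 4.73 CPM in 3D. The libraries of the growth conditions did not overlap in these lines, with 3D higher, as for 27.3%, 23.0% and 20.9% of tested genes. In HCT116 the 2D libraries had 7.97, 7.10 and 11.1 CPM and the 3D libraries 22.8, 17.5 and 10.9 CPM, so that replicate 3 in 3D lay within the 2D range. RELB rose by 0.68 in HT29 (SE 0.20, adjusted p = 0.0081, edgeR), by 0.97 in HCT116 (SE 0.20, adjusted p = 0.00086) and by 0.85 in LS174T (SE 0.22, adjusted p = 0.0092). The value in LS513 was 0.53 (95% interval 0.12 to 0.94, adjusted p = 0.054, edgeR), and without replicate 3 in 3D it was 0.67 (adjusted p = 0.020). DESeq2 called RELB in LS513 (0.54, adjusted p = 0.04). Without replicate 1 in 3D the HCT116 value was 0.69 (adjusted p = 0.014).

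**Figure D2:**
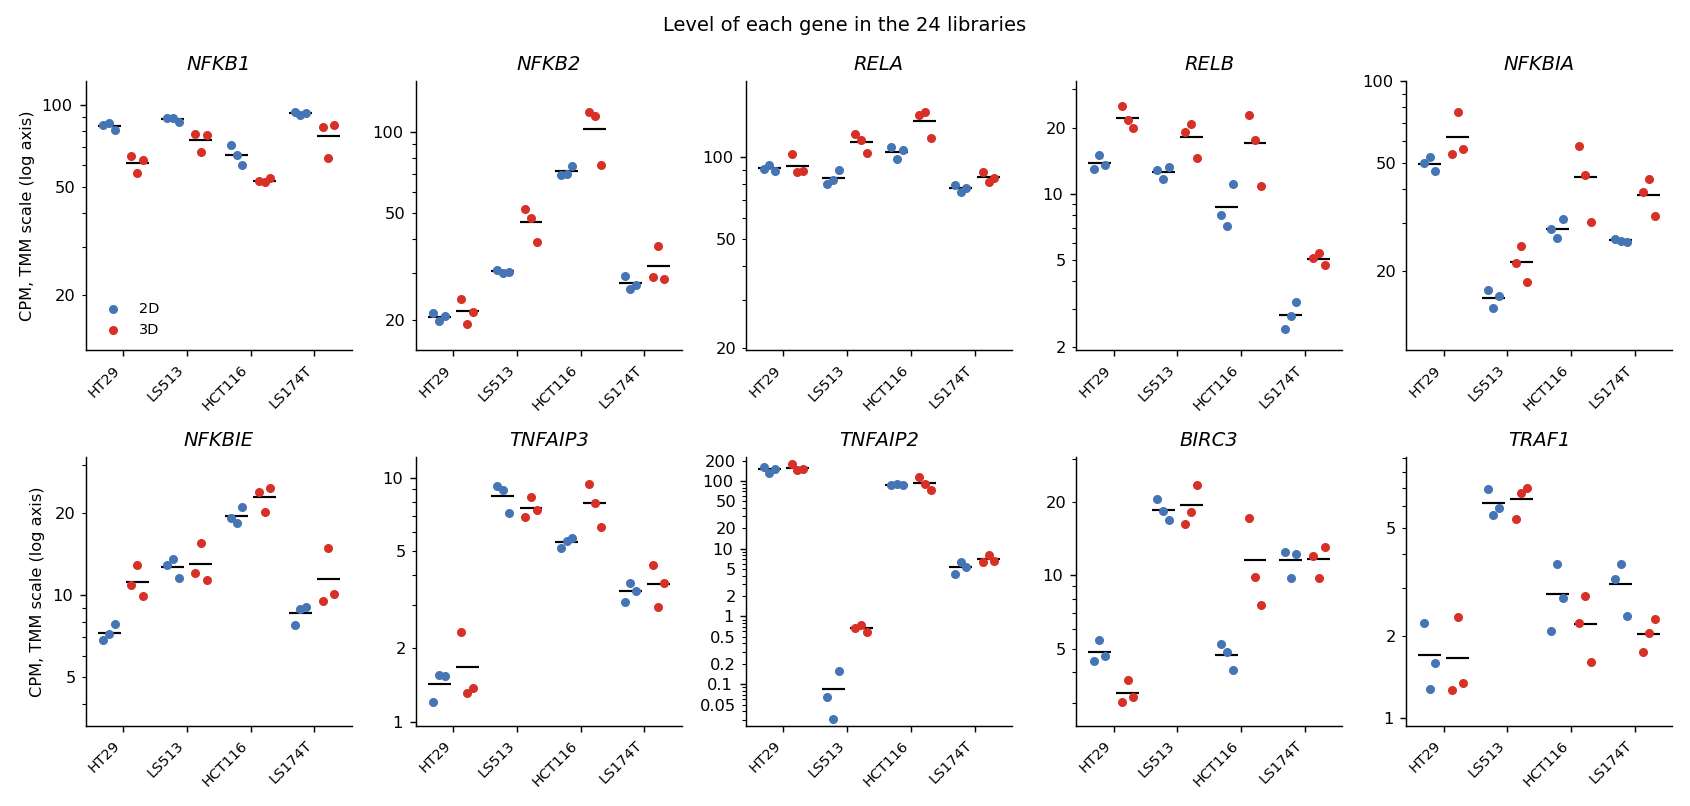
CPM on the TMM scale (log axis) of the 10 genes in each library, 2D in blue and 3D in red, with the group mean as a bar. NFKB1 points in 3D lie under those in 2D in every line, RELB points lie above except for 1 HCT116 library at 10.9 CPM, and TNFAIP2 in LS513 lies far under the other lines.

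NFKB2 and RELA were both called higher in LS513 and HCT116 and in no other line. NFKB2 (ENSG00000077150, chromosome 10, 102394110 to 102402529) encodes p100, which is both the precursor of p52 and an inhibitor of RELB dimers. In LS513 its level was 30.8, 30.1 and 30.3 CPM in 2D and 52.0, 48.1 and 39.2 CPM in 3D. In HCT116 it was 69.2, 69.9 and 75.1 CPM in 2D and 119, 114 and 75.7 CPM in 3D. The 3D libraries were higher without overlap in both lines, as for 23.0% of tested genes in LS513 and 22.8% in HCT116. Replicate 3 of HCT116 in 3D was only just above the 2D range. NFKB2 rose by 0.61 in LS513 (SE 0.14, adjusted p = 0.0025, edgeR) and by 0.53 in HCT116 (SE 0.14, adjusted p = 0.0056), the latter with an adjusted p of 0.059 when replicate 1 in 3D was left out. In HT29 the levels were 21.2, 19.9 and 20.8 CPM in 2D and 24, 19.3 and 21.4 CPM in 3D. In LS174T they were 29.2, 26.0 and 27.1 CPM in 2D and 28.9, 37.7 and 28.6 CPM in 3D. The growth conditions overlapped in both of these lines, with log2 fold changes of 0.07 (95% interval -0.23 to 0.37) and 0.21 (-0.08 to 0.50).

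RELA (ENSG00000173039, chromosome 11, 65653596 to 65663094, minus strand) encodes p65, the main activating subunit of the canonical pathway. Its level was 79.7, 82.7 and 89.6 CPM in LS513 grown in 2D and 122, 116 and 104 CPM in 3D. In HCT116 it was 109, 98.6 and 107 CPM in 2D and 144, 147 and 118 CPM in 3D. The growth conditions did not overlap in either line, as for 23.0% of tested genes in LS513 and 22.8% in HCT116 with 3D higher. RELA rose by 0.44 in LS513 (SE 0.09, adjusted p = 0.00085, edgeR) and by 0.38 in HCT116 (SE 0.09, adjusted p = 0.0026). HT29 had 90.9, 93.6 and 89.3 CPM in 2D and 103, 88.3 and 88.9 CPM in 3D, which overlapped. LS174T had 79.1, 74.7 and 77.5 CPM in 2D and 88.1, 81.6 and 83.9 CPM in 3D, which did not, as for 20.9% of tested genes with 3D higher. The log2 fold change of 0.13 there (95% interval -0.05 to 0.32) did not pass the test. The growth effect of RELA was 0.41 lower in HT29 than in LS513 on the log2 scale (adjusted p = 0.034, edgeR). Over the 4 lines the test of a difference missed the threshold for RELA (adjusted p = 0.054) and for NFKB2 (adjusted p = 0.14).

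The inhibitor genes were higher in 3D where they were called. NFKBIA (ENSG00000100906, chromosome 14, 35401511 to 35404749, minus strand) encodes IkB-alpha, a rapidly induced target whose protein takes NF-kB back out of the nucleus. In LS174T it was at 26.3, 25.9 and 25.7 CPM in 2D and at 39.0, 43.6 and 32.0 CPM in 3D. In HCT116 it was at 28.6, 26.5 and 31.0 CPM in 2D and at 57.9, 45.4 and 30.3 CPM in 3D. The groups did not overlap in LS174T, as for 20.9% of tested genes with 3D higher. In HCT116, by contrast, replicate 3 in 3D lay among the 2D libraries. NFKBIA rose by 0.55 in LS174T (SE 0.17, adjusted p = 0.024, edgeR) and by 0.63 in HCT116 (SE 0.17, adjusted p = 0.0077). The LS174T call was lost when any library but replicate 3 in 3D was left out (adjusted p from 0.058 to 0.11, edgeR), and the HCT116 call without replicate 1 in 3D (log2 fold change 0.38, adjusted p = 0.11). HT29, with the highest level, had 49.8, 52.7 and 46.6 CPM in 2D and 54.1, 77.0 and 56.3 CPM in 3D. LS513 had 17.1, 14.7 and 16.3 CPM in 2D and 21.5, 24.9 and 18.3 CPM in 3D. Neither line showed overlap, as for 27.3% and 23.0% of tested genes with 3D higher. The log2 fold changes of 0.33 (95% interval -0.02 to 0.68) and 0.43 (0.07 to 0.80) did not pass the test (adjusted p = 0.13 and 0.080, edgeR). Without replicate 3 in 3D, NFKBIA in LS513 passed it (0.54, adjusted p = 0.038).

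NFKBIE (ENSG00000146232, chromosome 6, 44258166 to 44265788, minus strand) encodes IkB-epsilon, a further IkB protein that is itself an NF-kB target. In HT29 its level was 6.82, 7.23 and 7.83 CPM in 2D and 10.9, 12.9 and 9.90 CPM in 3D. These groups stood apart, as for 27.3% of tested genes with 3D higher, and NFKBIE rose by 0.63 (SE 0.16, adjusted p = 0.0033, edgeR). LS174T had 7.80, 8.87 and 9.09 CPM in 2D and 9.53, 14.9 and 10.1 CPM in 3D, with a log2 fold change of 0.42 (95% interval 0.10 to 0.74, adjusted p = 0.055, edgeR), and passed the test without replicate 1 or without replicate 3 in 3D (adjusted p = 0.027 in both cases). DESeq2 called NFKBIE in LS174T (0.43, adjusted p = 0.035). In LS513 the 2D range of 11.5 to 13.6 CPM lay within the 3D range of 11.4 to 15.6 CPM. In HCT116, where NFKBIE was highest, the 2D libraries had 18.5 to 21.1 CPM and the 3D libraries 20.3 to 24.8 CPM. The log2 fold changes there were 0.04 (95% interval -0.28 to 0.36) and 0.23 (-0.08 to 0.54).

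TNFAIP3 (ENSG00000118503, chromosome 6, 137867188 to 137883312) encodes A20, a ubiquitin-editing enzyme that switches off NF-kB signaling from the TNF receptor. In HCT116 it was at 5.17, 5.49 and 5.68 CPM in 2D and at 9.41, 7.87 and 6.32 CPM in 3D. The groups did not overlap, as for 22.8% of tested genes, and TNFAIP3 rose by 0.53 (SE 0.18, adjusted p = 0.033, edgeR). That call was lost when any of the 6 HCT116 libraries but replicate 3 in 3D was left out, with adjusted p-values from 0.062 to 0.20 in those 5 fits. In the other lines the growth conditions overlapped. HT29 had 1.2 to 1.55 CPM in 2D and 1.31 to 2.32 CPM in 3D, LS513 had 7.19 to 9.30 CPM in 2D and 6.94 to 8.35 CPM in 3D, and LS174T had 3.11 to 3.73 CPM in 2D and 2.95 to 4.38 CPM in 3D. The log2 fold changes were 0.25 (95% interval -0.23 to 0.73), -0.17 (-0.54 to 0.21) and 0.11 (-0.29 to 0.51). AL357060.1, an antisense gene, shares 95 exon bases with TNFAIP3 on the other strand and had 158 counts over all libraries, and the libraries were made with a strand-specific kit.

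TNFAIP2 (ENSG00000185215, chromosome 14, 103123442 to 103137439), named for its induction by TNF and linked to membrane protrusions, had the widest span of levels in the group. HT29 had 163, 131 and 150 CPM in 2D and 175, 146 and 149 CPM in 3D. HCT116 had 88.3, 90.4 and 87.0 CPM in 2D and 115, 91.6 and 74.6 CPM in 3D. The growth conditions overlapped in both, with a log2 fold change of 0.08 (95% interval -0.21 to 0.38) in each. LS174T had 4.22, 6.31 and 5.42 CPM in 2D and 6.47, 8.17 and 6.54 CPM in 3D. There the 3D libraries were higher without overlap, as for 20.9% of tested genes. The log2 fold change of 0.40 (95% interval 0.06 to 0.75) did not pass the test (adjusted p = 0.082, edgeR), which it did without replicate 2 in 2D (0.55, adjusted p = 0.048).

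In LS513, TNFAIP2 was close to the limit of detection. The 2D libraries had 2, 1 and 5 counts (0.0644, 0.0302 and 0.158 CPM) and the 3D libraries 19, 21 and 17 counts (0.669, 0.746 and 0.589 CPM). All 3D libraries were above the floor of 3 counts and above every 2D library, the latter as for 23.0% of tested genes. TNFAIP2 rose by 2.94 on the log2 scale (SE 0.47, adjusted p = 8e-05, edgeR), or by 2.54 to 3.73 with 1 of the line's libraries left out, the highest without replicate 3 in 2D. The ratio of the summed counts, 57 against 8, was 7.99 after scaling, with an exact interval of 3.79 to 19.4 that covers counting error only. The increase was greater than in HT29 by 2.85 (adjusted p = 0.00036, edgeR), than in HCT116 by 2.85 (adjusted p = 0.00097) and than in LS174T by 2.53 (adjusted p = 0.0043). Even in 3D the level in LS513 stayed far under that of HT29, as the mean in HT29 was 235 times that in LS513.

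BIRC3 (ENSG00000023445, chromosome 11, 102317450 to 102339403) encodes cIAP2, a ubiquitin ligase of the TNF receptor complex that restrains caspase activation and is a known NF-kB target. HCT116 had 5.23, 4.86 and 4.11 CPM in 2D and 17.1, 9.87 and 7.55 CPM in 3D. The groups did not overlap, with 3D higher, as for 22.8% of tested genes. The 3D libraries differed widely, with replicate 1 highest. BIRC3 rose by 1.28 (SE 0.22, adjusted p = 0.00014, edgeR), and by 0.86 without that library (adjusted p = 0.0017). HT29 had 4.46, 5.44 and 4.66 CPM in 2D and 3.02, 3.73 and 3.16 CPM in 3D, all of the latter lower, as for 25.6% of tested genes. The log2 fold change there of -0.56 (95% interval -1.04 to -0.07) did not pass the test (adjusted p = 0.062, edgeR). In LS513 the ranges were 16.9 to 20.6 CPM in 2D and 16.2 to 23.5 CPM in 3D. In LS174T they were 9.73 to 12.5 CPM in 2D and 9.74 to 13.1 CPM in 3D. Both pairs overlapped, with log2 fold changes of 0.05 (95% interval -0.37 to 0.48) and 0.02 (-0.42 to 0.45). The growth effect in HCT116 exceeded that in HT29 by 1.84 (adjusted p = 0.00042, edgeR), that in LS513 by 1.23 (adjusted p = 0.016) and that in LS174T by 1.27 (adjusted p = 0.013).

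Of the 10 members, TNFAIP2 (adjusted p = 0.0014, edgeR) and BIRC3 (adjusted p = 0.0012) had growth effects that differed over the 4 lines, 2 of 10 beside 17.1% of all tested genes. By pair of lines, the test called 1 member between HCT116 and LS174T (4.75% of all genes), 1 between HT29 and HCT116 (7.76%), 0 between HT29 and LS174T (6.65%, edgeR, and 0 at an unadjusted p under 0.05), 2 between HT29 and LS513 (12.1%), 2 between LS513 and HCT116 (4.34%) and 1 between LS513 and LS174T (3.62%). Each of the 4 subunit genes had fold changes of the same sign in every line. For NFKB2 and RELA, however, the 95% intervals in HT29 (-0.23 to 0.37 and -0.15 to 0.22) and LS174T (-0.08 to 0.50 and -0.05 to 0.32) included both signs. The test of a difference between lines gave adjusted p-values of 0.67 for NFKB1, 0.64 for RELB, 0.14 for NFKB2 and 0.054 for RELA (edgeR), which does not show that the effects were equal.

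TRAF1 (ENSG00000056558, chromosome 9, 120902393 to 120929173, minus strand) encodes an adaptor of TNF receptors that binds the cIAP proteins. LS174T had 3.23, 3.67 and 2.37 CPM in 2D and 1.75, 2.04 and 2.30 CPM in 3D. The 3D libraries were lower without overlap, as for 17.6% of tested genes, and the log2 fold change of -0.61 (95% interval -1.14 to -0.07) did not pass the test (adjusted p = 0.097, edgeR). In the other lines the libraries overlapped, with log2 fold changes of -0.05 in HT29 (95% interval -0.64 to 0.54), 0.05 in LS513 (-0.44 to 0.54) and -0.36 in HCT116 (-0.90 to 0.18). TRAF1 was thus the single member called in no line.

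The lines differed in the level of every member. The test over the 4 lines called 10 of 10 genes in 2D and 10 of 10 in 3D, beside 91.7% of all tested genes in each condition, so that the count itself sets the group apart little. In 2D a pair of lines differed in 7 to 10 of the 10 members, namely in 8 between HCT116 and LS174T (68.3% of all genes), HT29 and HCT116 (68.8%) and HT29 and LS174T (64.6%), in 7 between HT29 and LS513 (60.6%) and LS513 and LS174T (57.6%), and in 10 between LS513 and HCT116 (68.3%). In 3D it was 7 between HCT116 and LS174T (67.2%) and HT29 and LS174T (65.5%) and 8 between HT29 and HCT116 (68.5%), HT29 and LS513 (61.9%), LS513 and HCT116 (68.5%) and LS513 and LS174T (60.9%). The size of the differences varied between genes. The highest line mean of RELA was 1.36 times the lowest in 2D and 1.61 times in 3D, and that of NFKB1 1.42 and 1.46 times. At the other end, TNFAIP2 in HT29 was 235 times the LS513 level in 3D. In 2D no ratio is given, as 2 of the 3 LS513 libraries were under the floor of 3 counts.

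NFKB2 was highest in HCT116, at 71.4 ± 3.23 CPM (SD, n = 3) in 2D, followed by LS513 at 30.4 ± 0.355 CPM (log2 difference 1.23, adjusted p = 4e-08, edgeR). LS513 and LS174T (27.5 ± 1.64 CPM) did not differ by the test (adjusted p = 0.39), and HT29 was lowest at 20.6 ± 0.684 CPM (adjusted p = 0.014 against LS174T, edgeR). In 3D the same order held and all neighbours differed. RELB had another order, with HT29 (13.9 ± 1.03 CPM in 2D) and LS513 (12.6 ± 0.801 CPM) not told apart (adjusted p = 0.58), then HCT116 (8.73 ± 2.10 CPM) and far under it LS174T (2.81 ± 0.404 CPM, log2 difference 1.63, adjusted p = 5.2e-07, edgeR). In 3D, HT29, LS513 and HCT116 were not separated in RELB by the test (adjusted p = 0.20 and 0.69 for the neighbours), and LS174T remained lowest.

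NFKB1 had the opposite end line, with the lowest level in HCT116 in 2D (65.5 ± 5.36 CPM, adjusted p = 0.0023 against HT29, edgeR) and in 3D (52.6 ± 0.929 CPM, adjusted p = 0.046). NFKBIA was highest in HT29 (49.7 ± 3.03 CPM in 2D) and lowest in LS513 (16 ± 1.21 CPM), while NFKBIE was highest in HCT116 (19.6 ± 1.33 CPM) and lowest in HT29 (7.29 ± 0.508 CPM). For NFKBIE, HT29 and LS174T were not told apart in 2D (adjusted p = 0.20, edgeR, overlapping libraries) or in 3D (adjusted p = 0.87). TNFAIP3, BIRC3 and TRAF1 were highest in LS513 in 2D, at 8.48 ± 1.13, 18.6 ± 1.89 and 6.13 ± 0.726 CPM, and TNFAIP3 and TRAF1 were lowest in HT29. LS513 was therefore the line with the most transcript of 3 feedback genes and with the least of TNFAIP2. In 3D, HCT116 and LS513 were not told apart for TNFAIP3 (adjusted p = 0.80, edgeR), nor HCT116 and LS174T for BIRC3 (adjusted p = 0.97).

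Levels of different genes were compared per kilobase of exon (CPM per kb), with all annotated exons of a gene joined. This length exceeds the longest transcript unevenly, at 5464 against 3183 bases in RELA, 2373 against 1558 in NFKBIA and 5029 against 4683 in TNFAIP2. The order of genes with close levels depends on the choice of length. In HT29 grown in 2D, TNFAIP2 was the highest of the group on this scale at 29.4 ± 3.18 CPM per kb (SD, n = 3), above NFKBIA at 20.9 ± 1.28 and RELA at 16.7 ± 0.393. RELA led in LS513 (15.4 ± 0.932 in 2D) and in HCT116 (19.2 ± 1.01 in 2D). In LS174T, NFKB1 led in 2D (14.9 ± 0.193) and NFKBIA in 3D (16.1 ± 2.48), each close to RELA (14.1 ± 0.401 and 15.5 ± 0.607). TRAF1 was lowest in HT29, HCT116 and LS174T in both growth conditions (0.256 to 0.479 CPM per kb), and TNFAIP2 in LS513 (0.0168 ± 0.0132 in 2D). RELA was among the first 3 of the 10 genes in every group.

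**Figure D3:**
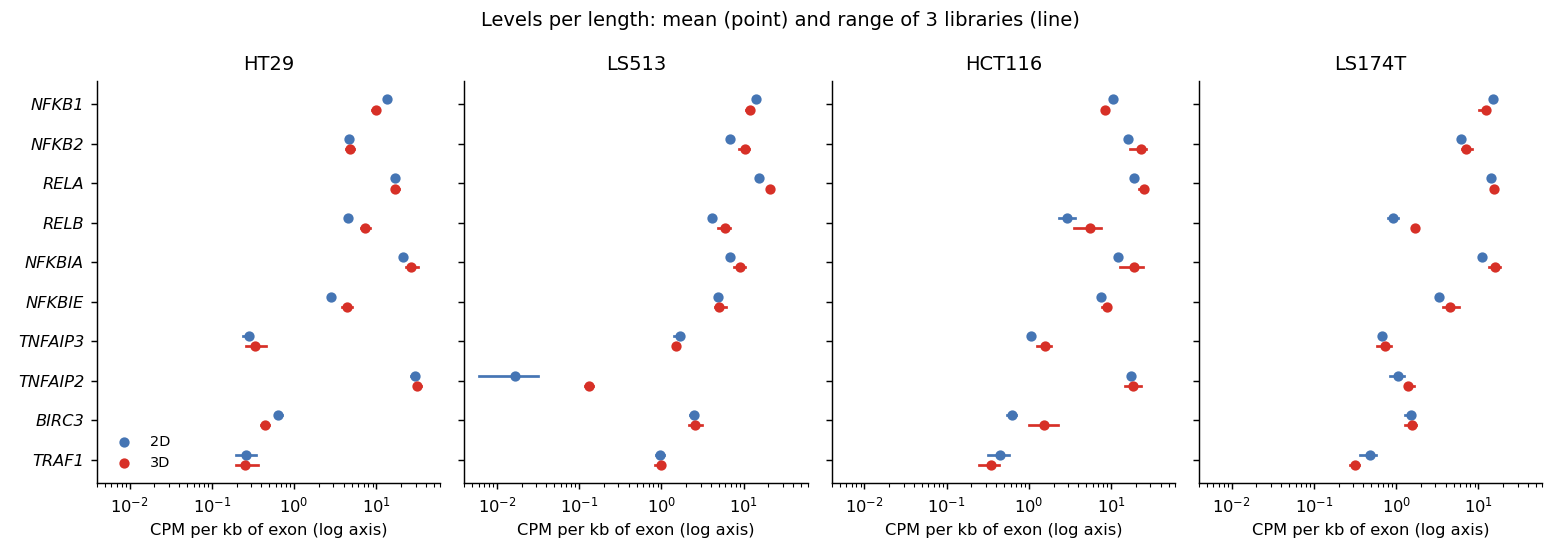
Level of each gene per kilobase of exon (CPM per kb, log axis), mean of 3 libraries as a point and their range as a line, 2D in blue and 3D in red. RELA lies to the right and TRAF1 to the left in each line, and TNFAIP2 moves from the top of the group in HT29 to the bottom in LS513.

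Because NFKB1 and the other subunit genes moved apart, their ratios per length were computed within each library, where library scaling cancels. The ratio of RELB to NFKB1 was 0.318, 0.362 and 0.347 in HT29 grown in 2D and 0.799, 0.798 and 0.655 in 3D. In LS513 it was 0.295, 0.270 and 0.318 in 2D and 0.507, 0.641 and 0.390 in 3D. In HCT116 it was 0.232, 0.224 and 0.380 in 2D and 0.900, 0.696 and 0.417 in 3D. In LS174T it was 0.0532, 0.0627 and 0.0713 in 2D and 0.127, 0.174 and 0.116 in 3D. Every 3D library was above every 2D library of its line, also in HCT116, where RELB alone overlapped. NFKB1, the denominator, was by itself lower in every 3D library than in every 2D library of its line. The log2 ratio of the means was 1.27 in HCT116, 1.16 in LS174T, 1.13 in HT29 and 0.80 in LS513.

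The ratio of NFKB2 to NFKB1 was likewise higher in all 3D libraries of each line, with means of 0.345 in 2D and 0.491 in 3D in HT29, 0.479 and 0.878 in LS513, 1.53 and 2.74 in HCT116, and 0.412 and 0.596 in LS174T. HCT116 was the line where NFKB2 exceeded NFKB1 per length in every library. The ratio of RELA to NFKB1 also separated the growth conditions in each line, from means of 1.84 to 2.97 in HCT116, 1.25 to 1.75 in HT29, 1.09 to 1.77 in LS513 and 0.95 to 1.28 in LS174T. For a single ratio of 3 libraries against 3, an exact permutation test cannot go below p = 0.1, so that no test is given. The ratio of the inhibitor gene NFKBIE to NFKB1 was higher in every 3D library in HT29, HCT116 and LS174T, but overlapped in LS513 (0.325 to 0.367 in 2D and 0.358 to 0.562 in 3D). The ratios share NFKB1, whose own level was lower in 3D, and are not independent of each other. A ratio to NFKB1 can therefore separate the growth conditions with little change in the other gene. In HT29 the log2 fold changes of NFKB2 and RELA were 0.07 and 0.03, yet both ratios separated. The share of all tested genes whose ratio to NFKB1 separates was not computed.

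**Figure D4:**
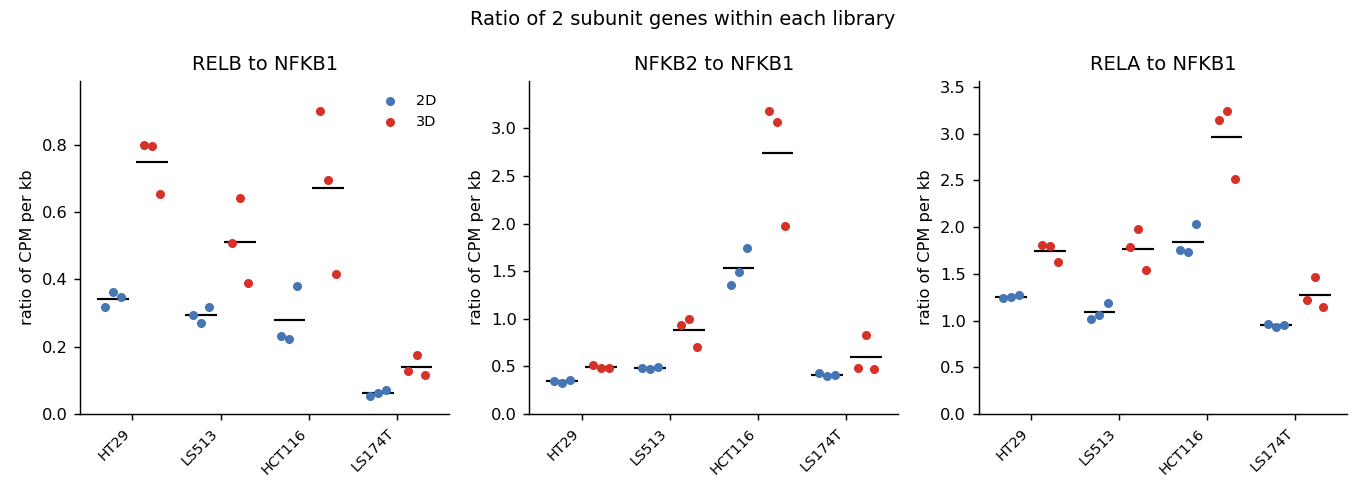
Ratio of RELB, NFKB2 and RELA to NFKB1 (CPM per kb over CPM per kb) within each library, 2D in blue and 3D in red, with the group mean as a bar. In each panel and line all 3D points lie above all 2D points. NFKB1, the shared denominator, was by itself lower in every 3D library than in every 2D library of its line.

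The covariation of the members within lines was described by Pearson's r over the 24 libraries, after each line's mean was removed from log2(CPM + 1). These values share the growth condition and the scaling of each library. Of the 45 pairs, 28 were positive, with a median of 0.32. The closest pairs were NFKB2 with RELA and RELB with NFKBIA, both with r = 0.90, and RELB with NFKB2 and with RELA reached 0.78. NFKB1 ran opposite to most of the group, with r = -0.86 against NFKBIE, -0.80 against RELB and -0.79 against NFKBIA, and -0.67 against the mean of all members. In HCT116 grown in 3D, the mean of the members' centred values on this log2 scale was 0.42 in replicate 1, 0.22 in replicate 2 and -0.11 in replicate 3, the latter beside -0.20 to -0.14 in the 2D libraries. In this average replicate 3 of HCT116 in 3D lay nearer to the 2D libraries than to its own group, while its NFKB1 level of 53.7 CPM lay with the other 3D libraries.

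The genes outside the group whose centred levels followed the mean of the members most closely were PHYKPL (r = 0.94 over 24 libraries), CASP4, TMEM184A, EPS8L2 and STXBP2 (r = 0.91 each). They were picked for following this mean, which lay above the centre of its line in most 3D libraries. A rise of these genes in 3D was thus largely set by the choice and is no separate result. CASP4, an inflammatory caspase that senses intracellular lipopolysaccharide, was higher in 3D in all lines, by 1.16 in HCT116, 0.75 in LS513, 0.64 in LS174T and 0.59 in HT29 on the log2 scale (adjusted p = 2.1e-05, 0.00055, 0.0035 and 0.0026, edgeR). PHYKPL, an enzyme of hydroxylysine breakdown, rose in HT29, LS513 and HCT116 (0.51, 0.83 and 1.09) and did not pass the test in LS174T (0.34, adjusted p = 0.19).

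The other genes of the pathway were taken from a list of 65, arranged by role, of which 58 were tested. HT29 had 11 higher and 10 lower in 3D, LS513 had 9 and 4, LS174T had 9 and 9, and HCT116 had 12 and 4. These counts stand beside 21.1% higher and 19.6% lower of all tested genes in HT29, 13.7% and 9.90% in LS513, 13.1% and 9.15% in LS174T, and 16.8% and 12.3% in HCT116. The median log2 fold change of the 58 genes was -0.06, 0.06, -0.09 and 0.07 in the same order of lines, close to those of all tested genes. The calls thus went in both directions in each line, and the changes lay in single genes.

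REL encodes c-Rel, the subunit outside the group, and shared the direction of NFKB1. It fell in HT29 from 20.3 ± 3.78 to 10.9 ± 2.37 CPM (SD, n = 3), a log2 fold change of -0.89 (SE 0.31, adjusted p = 0.027, edgeR), and in LS174T from 22.8 ± 1.25 to 12.5 ± 6.13 CPM (-0.86, SE 0.31, adjusted p = 0.048). In LS513 and HCT116 its log2 fold changes of -0.61 and -0.32 did not pass the test. Among the other IkB genes, BCL3, which binds p50 and p52 homodimers, rose in HCT116 by 0.86 (adjusted p = 0.010, edgeR), and NFKBID fell by 0.66 in HT29 (adjusted p = 0.0024) and by 0.51 in LS174T (adjusted p = 0.037).

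Among the 10 kinase genes, 5 were lower and 2 higher in HT29, 1 was lower in LS513, and 2 were lower in each of HCT116 and LS174T. Of all tested genes, 19.6% were lower and 21.1% higher in HT29, and 9.90%, 12.3% and 9.15% were lower in LS513, HCT116 and LS174T. CHUK, which encodes IKK-alpha, the kinase of the non-canonical pathway, fell by 0.80 in HT29 (adjusted p = 0.00039, edgeR), by 0.67 in HCT116 (adjusted p = 0.0024) and by 0.53 in LS174T (adjusted p = 0.020). The LS174T libraries in 3D spread widely, at 39 ± 11 CPM (SD, n = 3) against 56.3 ± 0.674 CPM in 2D. In LS513 the value of CHUK was -0.41 (adjusted p = 0.065, edgeR). In HT29 the related kinase gene IKBKE rose by 0.47 (adjusted p = 0.0064, edgeR), and in LS513 the gene of the upstream kinase TAK1, MAP3K7, fell by 0.35 (adjusted p = 0.035), as it did in HT29 by 0.51 (adjusted p = 0.0015).

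Among the deubiquitinases and their partners, TNIP1 and OTULIN were called in all 4 lines with opposite directions. TNIP1, whose product binds A20 and dampens NF-kB signaling, rose from 95.2 ± 3.42 to 165 ± 19.1 CPM in HT29, from 101 ± 2.97 to 166 ± 24.3 in LS513, from 46.9 ± 2.75 to 97.3 ± 18.7 in HCT116 and from 80 ± 4.85 to 133 ± 5.34 in LS174T. Its log2 fold changes were 0.79, 0.71, 1.05 and 0.73, with adjusted p-values of 1.7e-05, 0.0001, 7.7e-07 and 0.00014 (edgeR). OTULIN, which removes linear ubiquitin chains, fell by 0.62, 0.50, 0.54 and 0.46 in the same order (adjusted p = 0.0016, 0.016, 0.0079 and 0.026, edgeR). In LS174T its 3D libraries spread widely, at 36 ± 9.58 CPM against 49.4 ± 1.03 CPM in 2D. Values with 1 library left out are given for the members only. Of the 13 adaptor and ligase genes, 4 were higher and 1 lower in HT29, and 3 and 1 in LS513. In HCT116 it was 4 and 0, and in LS174T 2 and 1. Of all tested genes, 21.1% were higher and 19.6% lower in HT29, and 13.7% and 9.90% in LS513. The shares were 16.8% and 12.3% in HCT116 and 13.1% and 9.15% in LS174T. The lower genes were IRAK1 in HT29, TRAF5 in LS513 and RIPK1 in LS174T. RBCK1 and TRADD were called higher in all 4 lines. The share of all tested genes called in the same direction in all 4 lines was not computed. RBCK1, a subunit of the complex that makes linear ubiquitin chains, rose by 0.47 in HT29 (adjusted p = 0.0047, edgeR), 1.61 in LS513 (adjusted p = 5e-09), 0.67 in HCT116 (adjusted p = 0.00037) and 1.08 in LS174T (adjusted p = 2.2e-06). TRADD, the adaptor of the TNF receptor, rose by 1.02 in HCT116, 0.74 in LS174T, 0.67 in HT29 and 0.59 in LS513 (adjusted p = 6.3e-05, 0.0024, 0.0021 and 0.0092, edgeR).

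Upstream of the members, 9 of 10 receptor genes were tested, of which 2 were higher and 1 lower in HT29, 2 higher in LS513, 4 higher in HCT116 and 2 lower in LS174T. Of all tested genes, 21.1% were higher and 19.6% lower in HT29, and 13.7% and 9.90% in LS513. In HCT116 the shares were 16.8% and 12.3%, and in LS174T 13.1% and 9.15%. LTBR, the lymphotoxin-beta receptor that signals through the non-canonical pathway, rose by 0.35 in HCT116 (adjusted p = 0.0048, edgeR). TNFRSF1A, the main TNF receptor gene, rose by 0.27 in LS513 (adjusted p = 0.023) and by 0.23 in HCT116 (adjusted p = 0.045), while TLR4, the lipopolysaccharide receptor, fell by 1.78 in LS174T (adjusted p = 0.00018). Of the 7 ligand genes, 4 were tested. TNF, LTA and LTB were too low for it, with at most 8 counts in a library. TNFSF12, the gene of the ligand TWEAK, had 161 to 205 counts in the LS513 libraries and 232 to 373 in those of HCT116, and was called in no line. The interleukin-1 genes were called in LS174T alone, IL1A at 0 to 2 counts in the 2D libraries and 19 to 28 in 3D (adjusted p = 2.5e-05, edgeR) and IL1B at 5 to 7 and 28 to 40 counts (adjusted p = 0.00016). Of the 13 other target genes tested, 4 were higher in LS174T, 3 in LS513 and 2 in each of HT29 and HCT116, and 1 was lower in each line but HT29. The chemokine gene CCL20 was called in HT29, where it had 0 to 1 counts in 2D and 7 to 26 in 3D (adjusted p = 0.0013, edgeR). It also rose in LS513 from 0.836 ± 0.183 to 4.36 ± 2.31 CPM (2.38, adjusted p = 0.00027, edgeR), and CXCL2 rose in LS174T from 1.78 ± 0.219 to 9.57 ± 7.0 CPM (2.42, adjusted p = 0.00025), each with a wide spread among the 3D libraries. IRF1, the gene of an interferon-linked transcription factor, rose by 0.93 in HCT116 (adjusted p = 1.1e-05, edgeR). CFLAR, which encodes the caspase-8 inhibitor c-FLIP, fell by 0.30 in LS174T, from 42.2 ± 0.184 to 34.2 ± 6.69 CPM (adjusted p = 0.048, edgeR).

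**Figure D5:**
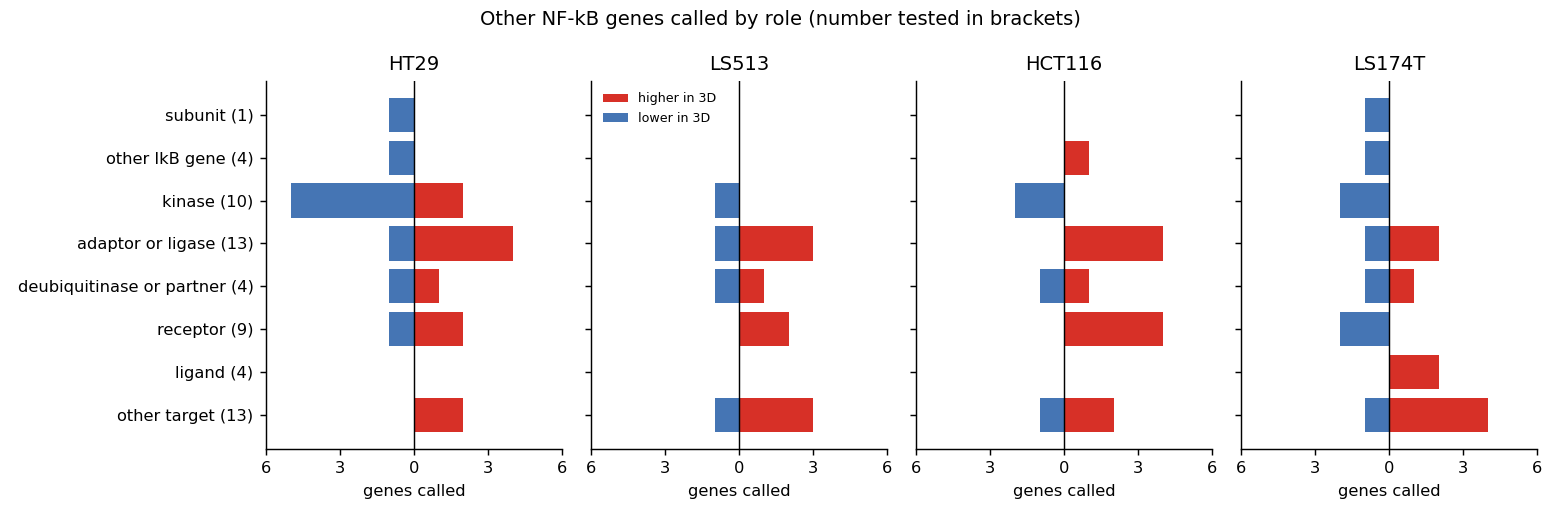
Number of other NF-kB pathway genes higher (red, to the right) or lower (blue, to the left) in 3D at an adjusted p under 0.05, by role, in the 4 lines, with the number tested in brackets. In HT29, 5 of 10 kinase genes were lower and 2 higher, beside 19.6% and 21.1% of all tested genes. The deubiquitinase group shows 1 gene in each direction in every line.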

How the data were processed

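Poly(A) RNA of the 24 libraries was sequenced as stranded single reads. For every technical replicate, the authors deposited unnormalized counts by gene. According to their methods, reads were trimmed, aligned with STAR, filtered for unique alignments and counted on exons with HTSeq-count. The submitters' processing notes name bcl2fastq 2.18.0.12, Trim Galore 0.4.1, HTSeq 0.5.3 and the build hg19, whereas 57980 of the 58243 identifiers were found in GENCODE 29 (GRCh38), which was used here for names, positions and exon lengths. Counts of the 8 technical replicates of a library were summed. For replicate 4 of HT29 grown in 3D, 7 were summed and 1 was not analysed here. The technical replicates differed by no more than counting error (median chi-square per degree of freedom at most 0.933). The libraries hold no molecular identifiers, so that floors and count intervals cover counting error only.

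In R 4.3.3, counts were filtered with filterByExpr, scaled by TMM and fitted with edgeR 4.0.16 (robust quasi-likelihood, 1 coefficient for each of the 8 groups, all 24 libraries). Line and growth condition came from the sample labels. Within each line 3D was compared with 2D, and the growth effect and the levels were compared between lines, with Benjamini-Hochberg adjustment over all tested genes and a threshold of 0.05. The scripts were tested on simulated data. Alternatives were the size factors of DESeq2, DESeq2 1.42.0, a replicate block, all genes with at least 1 count, only the 6 libraries of a line, leaving out technical replicate d, the fold change cutoffs of the study (log2 under -0.5 or over 1.5) and leaving out each library in turn. Promoter sequences are those of RefSeq on GRCh38.p14. The text names all 10 members, from the pathway list the called gene with the smallest p in each role, line and direction (not all of these are described), and the 5 genes most like the mean of the members. REL, CHUK, MAP3K7, RBCK1, TRADD and TNFRSF1A are also given in lines where they were not the gene with the smallest p. IL1B and TNFSF12 are given outside this rule, and TNF, LTA and LTB because they could not be tested. The members, the lists and the rules were chosen with earlier results of these data known.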

Additional observations from a re-analysis of the deposited data

Results flagged for a closer look

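The growth effect differed between the lines for 2 of the 10 genes, by the edgeR test of the difference itself. TNFAIP2 had an adjusted p of 0.0014 over the 4 lines, with log2 fold changes of 2.94 in LS513, 0.40 in LS174T and 0.08 in both HT29 and HCT116. The LS513 value rests on 1 to 5 counts in the 2D libraries and 17 to 21 in the 3D libraries, and was 3.73 without replicate 3 in 2D. BIRC3 had an adjusted p of 0.0012, with log2 fold changes of 1.28 in HCT116, 0.05 in LS513, 0.02 in LS174T and -0.56 in HT29. Each group held 3 libraries, too few for the test of a single library that stands apart.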

How the results depend on the processing

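The 40 log2 fold changes kept their direction and their side of the threshold with the size factors of DESeq2, and the test over the lines called 10 of 10 genes in 2D and in 3D with each library left out. The fold change cutoffs of the study were combined here with an adjusted p under 0.05, while the study names only a p under 0.05. They left 1 higher member in LS513 and 0 higher in HT29, HCT116 and LS174T, and 0 lower in HT29, HCT116 and LS174T. Without the adjustment, BIRC3 in HT29 (-0.56, p = 0.026, edgeR) and TRAF1 in LS174T (-0.61, p = 0.029) also passed as lower. With all genes of at least 1 count, 2 members were lower in HT29, 5 higher in LS513 and 0 lower in LS174T, and the same 3 values were found with only the 6 libraries of a line, where 1 was also lower in LS513. DESeq2 called 1 lower member in LS513. The cause of these changes was not tested, other than that the cutoffs remove small changes. With 1 library left out, the number of higher members was 3 to 5 in LS513 (5 without replicate 3 in 3D), 3 to 6 in HCT116 (3 without replicate 1 in 3D) and 1 to 3 in LS174T, that of lower members 0 to 1 in HCT116 and 0 to 1 in LS174T, and 2 to 4 members differed in growth effect between lines (4 without replicate 3 of HCT116 in 3D, which added NFKB2 and RELA). Signs changed only for uncalled values. Without technical replicate d, TRAF1 in HT29 had 0.02 and BIRC3 in LS174T -0.02. With 1 library left out, RELA in HT29 ran from -0.01 to 0.12, TNFAIP3 in HT29 from -0.05 to 0.44, TRAF1 in HT29 from -0.34 to 0.27, NFKBIE in LS513 from -0.11 to 0.13, BIRC3 in LS513 from -0.11 to 0.16, TRAF1 in LS513 from -0.02 to 0.15, TNFAIP2 in HCT116 from -0.11 to 0.20, TNFAIP3 in LS174T from -0.03 to 0.25 and BIRC3 in LS174T from -0.09 to 0.13. The replicate block left 1 higher and 0 lower members in LS174T, where NFKBIA had an adjusted p of 0.059 and NFKB1 of 0.073 (edgeR), and 5 higher in HCT116. The deviations of libraries with equal numbers correlated between -0.146 and 0.094, and not every library correlated best with its own number. Nothing in the labels ties the numbers to a shared culture. A shared culture is thus not shown, and libraries this few cannot exclude it. Depth limits TNFAIP2 in LS513 and the ligand genes TNF, LTA and LTB.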
